A study of Mus musculus with 18 samples.

Results

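Soft gels with strong matrix tethering were compared with stiff gels with weak tethering. In this crossed pairing the softer gel had more points at which matrix is anchored. The cells were E14 mouse embryonic stem cells (mESCs), an established line labelled 129m wt, grown for 24 h in medium with serum and LIF, the cytokine that maintains self-renewal. All substrates were StemBond hydrogels, polyacrylamide gels that carried fibronectin on a co-polymer named AHA. More AHA gives more points at which matrix is anchored. Tethering is named here by AHA concentration, and its strength was not measured in these libraries. The Soft80 group had 80 mM AHA (high AHA) at 750 Pa and the Stiff16 group had 16 mM AHA (low AHA) at 160 kPa, with 3 libraries each. These 6 libraries were taken by their condition labels from 18 in the series, in which both stiffnesses were combined with 16, 48 or 80 mM AHA. The question was which differences between soft and stiff gels remain when tethering is turned against stiffness. Stiffness and AHA both differ between Soft80 and Stiff16, so within this pairing their parts cannot be told apart.

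Cells sense a substrate through integrins, membrane receptors that bind matrix outside the cell and connect through talin and vinculin to the actin cytoskeleton. Pulling on an anchored and stiff matrix is known to strengthen these adhesions and to favour contractile gene expression and transcription through YAP with its partner TEAD. In mESCs the naïve state is held by a network of transcription factors that includes Nanog, Esrrb and Tfcp2l1, and signalling through the ERK kinases favours exit from that state.

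Replicate 1 of Soft80 carried a high share of ERCC spike-in RNA, 1.37% of its counts (95% Wilson interval 1.36 to 1.38%). In the other 5 libraries the share was between 0.610 and 0.693%. The study set such outliers aside, so values are given without that library (2 Soft80 against 3 Stiff16 libraries, in a fit of 17) and again with all 18. The 6 libraries held 5865549 to 8615930 counts in genes. No replicate pair agreed within counting noise. The labels name 3 samples per condition and do not say whether they came from separate cultures, so p-values measure the spread between these samples, which may be technical. All 10 of the listed mESC markers were detected in both groups, with summed levels of 2217 to 2432 CPM (counts per 1000000 gene counts) on Soft80 and 2191 to 2221 on Stiff16. Marker lists of primitive endoderm, mesendoderm, neuroectoderm, fibroblasts and the 2-cell-like state had 0 members called by edgeR or DESeq2 (1 each of the primitive endoderm and fibroblast lists had an unadjusted p under 0.05) and summed levels that overlapped between the groups. Olig2 of the neuroectoderm list was at 0 in every library of both groups, and Neurog2, Tpbpa and Lum were at 0 in every Soft80 library. Each summed to at most 152 CPM in any of the 6 libraries. Trophectoderm markers also had 0 called of 8 tested by both tools, with 1 at an unadjusted p under 0.05. Yet their sum was 71.9 to 93.4 CPM on Soft80 and 93.9 to 105 on Stiff16, without overlap but by a narrow gap. The lowest of these sums, 71.9 CPM, was that of the high-ERCC library. In bulk RNA, fewer cells of a type and less RNA per cell cannot be told apart.

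Called naïve pluripotency factors were higher on Soft80, while called adhesion, YAP target and ERK target genes, and all but 1 of the called contractile genes, were lower. At an adjusted p under 0.05 (edgeR's quasi-likelihood test, Benjamini-Hochberg), 145 of 13438 tested genes were called, which is 1.08%. Of these, 47 were higher on Soft80 (0.35%) and 98 were lower (0.729%). Differences were small: the median size among called genes was 0.33 on the log2 scale, and 6 genes exceeded 1. Before adjustment, 1482 genes had a p under 0.05. With the high-ERCC library added, 340 genes were called, 2.57% of those tested, with 129 higher (0.976%) and 211 lower (1.6%). All 145 genes kept their direction with it and 137 kept their call.

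**Figure D1:**
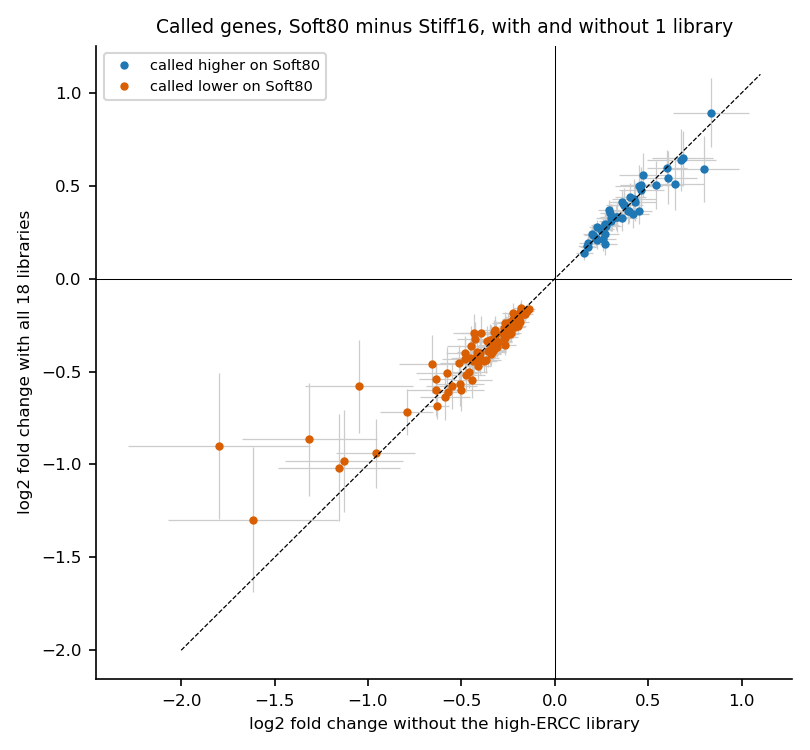
log2 fold change of Soft80 minus Stiff16 for the 145 called genes, without (x axis) and with (y axis) the high-ERCC Soft80 library. Grey bars are standard errors, the dashed line marks equal values, and every gene lies on the same side of 0 on both axes.

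The left-out library itself lay beyond every Stiff16 library, on the side of the fold change, for 139 of the 145 genes (95.9%). Over all genes tested, the same held for 41.8%. The 145 genes were called against these same Stiff16 libraries, so the left-out library is not an independent check of them. The count of called genes depended on which Soft80 libraries were used. Leaving out Soft80 replicate 2 in addition gave 62 called genes, leaving out replicate 3 in addition gave 88, and leaving out Stiff16 replicate 3 gave 83. Gene by gene, 16 of the 58 named genes that were called kept their call in each of the 17 fits that left out 1 library. Where one of the others lost its call, values without 1 or more of the libraries concerned are given with it. The genes that kept it included Itga3, Flnc, Nanog, Esrrb, Etv4, Ccn1, Vgf and Tpm1.

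The other pairings of soft and stiff gels used here share no library with Soft80 or Stiff16: both at 48 mM AHA (Soft48 against Stiff48), and the opposite crossing (Soft16 against Stiff80). At 48 mM, 384 genes were called (2.86% of 13438), and in the opposite crossing 193 were higher and 309 lower on soft (3.74% in all). Of the 145 genes, 85 were also called at 48 mM, all in the same direction, which is 58.6% of the 145 and 22.1% of those called at 48 mM. In the opposite crossing 76 of them were called, again all in the same direction, which is 52.4% of the 145 and 15.1% of those called there. The sign of the fold change was shared with the 48 mM pairing by 138 of the 145 genes (95.2%), against 59.1% of all genes tested. It was shared with the opposite crossing by 130 (89.7%), against 55.7% of all genes. In all 3 pairings 67 genes were called, 15 higher and 52 lower on soft.

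**Figure D2:**
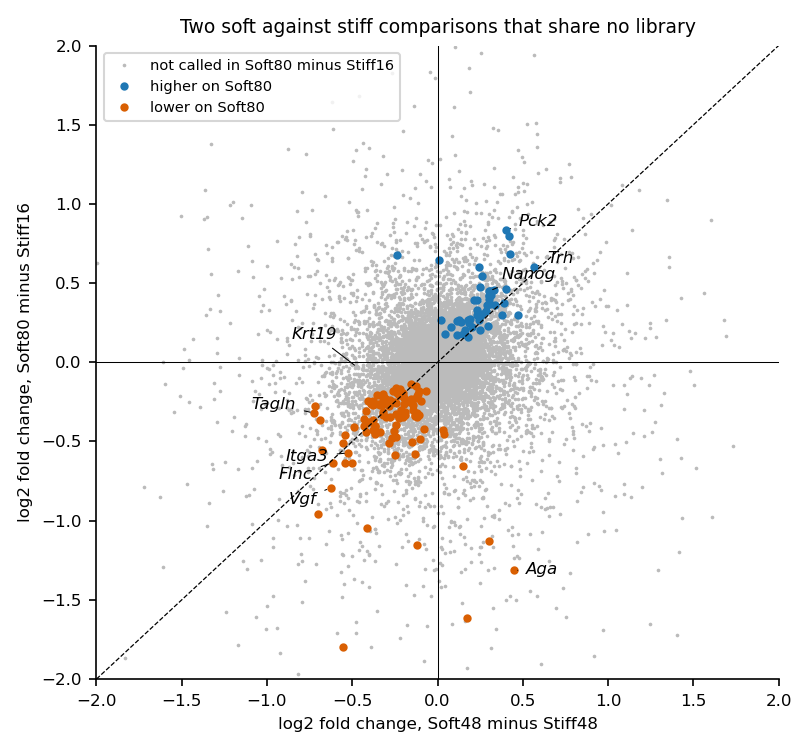
log2 fold change of each tested gene in Soft48 minus Stiff48 (x axis) and in Soft80 minus Stiff16 (y axis). Coloured points are genes called in Soft80 minus Stiff16, the dashed line marks equal values, and 18 genes beyond 2 on either axis, none of them called, are not drawn. Most called genes lie in the lower left and upper right quadrants, while Krt19 lies near 0 on the y axis.

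By their median, the genes called in the opposite crossing differed less in this pairing than in the pairing at equal AHA. These genes, whose defining libraries enter neither of the others, had a median difference of 0.13 on the log2 scale in Soft80 minus Stiff16 and 0.18 at 48 mM, signed as in the opposite crossing. The sign was shared by 412 of them (82.1%) and 460 of them (91.6%), respectively. These genes were chosen where AHA is paired with stiffness the other way, and the part of that choice in the smaller median was not tested. For the 384 genes called at 48 mM, signed as there, the median was 0.17 in Soft80 minus Stiff16 and 0.21 in the opposite crossing. Their sign was shared by 359 (93.5%) and 356 (92.7%), so this set differed little between the crossings. These medians are descriptions with no test of their own.

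The naïve pluripotency list held 15 genes, all tested, of which 7 were called higher on Soft80 and 0 lower. Its median log2 fold change was 0.30 (0.35 with all 18 libraries), against -0.0020 over all genes tested. The study chose this list, so its direction is not independent evidence. Nanog (chromosome 6, 122707489 to 122714633, plus strand, GRCm38), a core factor of the naïve state, measured 146 and 142 CPM in Soft80 replicates 2 and 3 and 104, 106 and 107 CPM in the Stiff16 replicates. Soft80 replicate 1, the high-ERCC library, was between these sets at 119 CPM. The log2 fold change of Nanog was 0.45 (SE 0.0739, adjusted p = 1.51e-05), and 0.36 (SE 0.0691, adjusted p = 0.000119) with all 18 libraries.

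Esrrb, an orphan nuclear receptor that sustains self-renewal, was at 301 and 293 CPM on Soft80, at 331 CPM in the high-ERCC library and at 240, 246 and 239 CPM on Stiff16. Its log2 fold change was 0.30 (SE 0.0546, adjusted p = 0.000164). No library of one group reached the range of the other. In these 6 libraries that held for 16.7% of all tested genes and for 139 of the 145 called genes. Tfcp2l1, a transcription factor of the same network downstream of LIF, measured 204 and 218 CPM on Soft80, 246 CPM in the high-ERCC library and 180, 165 and 171 CPM on Stiff16. On the log2 scale the Tfcp2l1 difference was 0.29 (SE 0.0608, adjusted p = 0.00159) and rose to 0.37 with all 18 libraries. Tbx3 (0.36, adjusted p = 0.0034), Klf2, Klf4 and Dppa3 were the other called members. For Dppa3, a germ cell and naïve marker, the levels were 21.7 and 24.4 CPM on Soft80 and 10.7 to 14.7 CPM on Stiff16, but the high-ERCC library, at 13.7 CPM, fell among the Stiff16 values. Without Soft80 replicate 3 the calls of Tfcp2l1 (0.24, adjusted p = 0.12), Tbx3 (0.30, adjusted p = 0.15) and Dppa3 (0.72, adjusted p = 0.13) were lost, and that of Dppa3 also without Stiff16 replicate 1 (0.65, adjusted p = 0.12).

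Of 3 general pluripotency factors, 0 were called by edgeR or DESeq2 and 2 had an unadjusted p under 0.05. Pou5f1, which encodes Oct4, differed by 0.12 (adjusted p = 0.26, opposite-strand exons over 14.1% of its length) and Sox2 by 0.17 (adjusted p = 0.11). With all 18 libraries Sox2 passed the threshold (0.16, adjusted p = 0.04). Of 6 formative genes, which mark exit from the naïve state, Pou3f1 alone was called, at 60.5 and 54.8 CPM on Soft80 and 71.7 to 84 CPM on Stiff16 (-0.43, adjusted p = 0.0054). The Pou3f1 call was lost without Soft80 replicate 3 (-0.37, adjusted p = 0.16) or Stiff16 replicate 1 (-0.37, adjusted p = 0.073). Dnmt3b, a DNA methyltransferase, differed by -0.09 (adjusted p = 0.43) and the transcription factor Otx2 by -0.03 (adjusted p = 0.98).

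**Figure D3:**
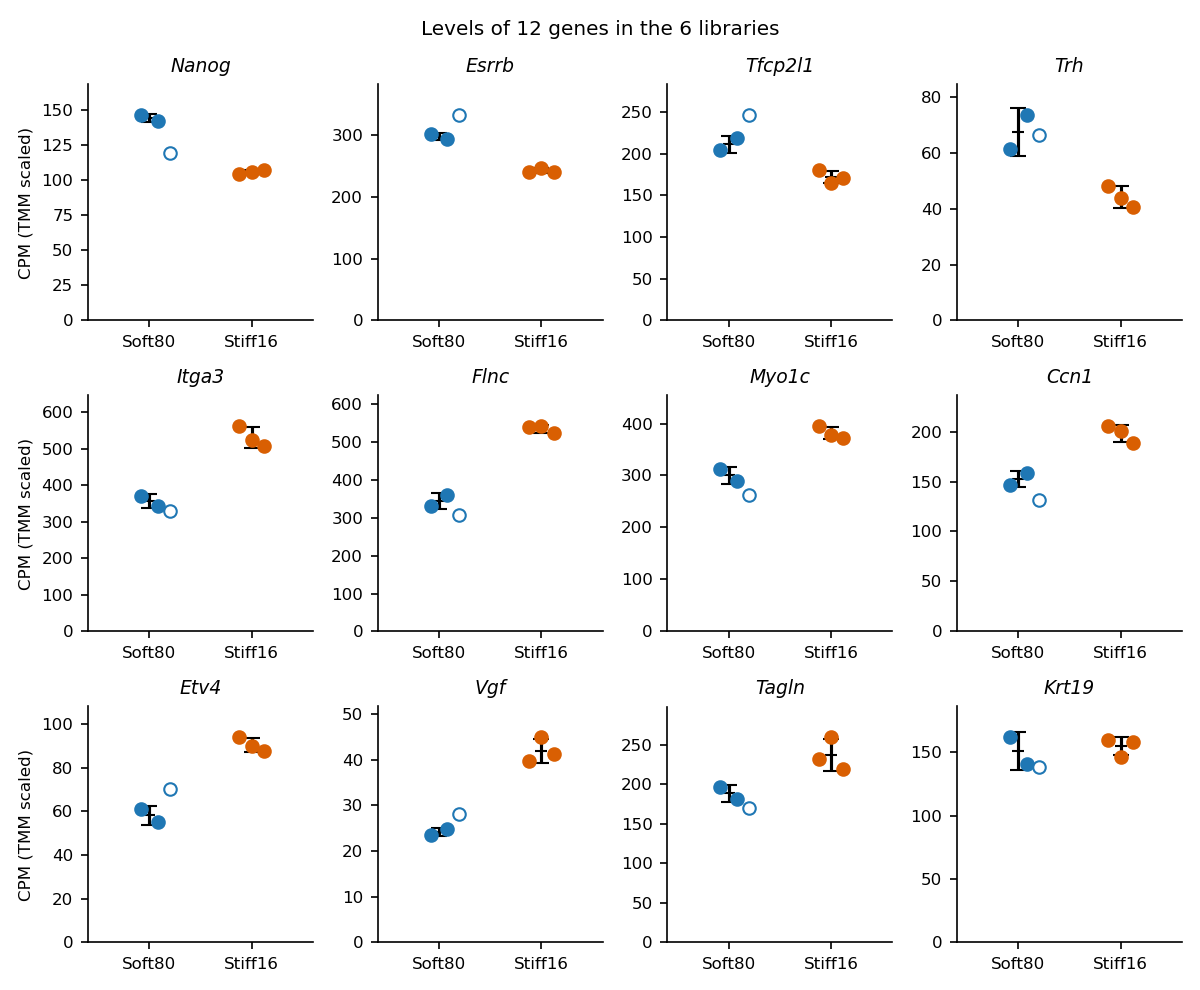
Level in TMM-scaled CPM of 12 genes in each library of Soft80 (blue) and Stiff16 (orange). The open circle is the high-ERCC library, and black bars are the mean and SD of the filled points (n = 2 and n = 3). Itga3, Flnc, Myo1c, Ccn1, Etv4, Vgf and Tagln are lower on Soft80 without overlap. Nanog, Esrrb, Tfcp2l1 and Trh are higher, and the Krt19 levels overlap. Groups without overlap in the 6 libraries were found for 16.7% of all genes tested and for 139 of the 145 called genes.

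The called genes of matrix adhesion were lower on Soft80. Of 25 tested focal adhesion and integrin genes, 5 were called lower and 0 higher, with a median of -0.13 (-0.16 with all 18 libraries, when 8 were called lower). Itga3 (chromosome 11, 95044474 to 95076801, minus strand), the alpha 3 integrin subunit that binds laminin, had the lowest adjusted p of all genes. Its levels were 371 and 343 CPM on Soft80, 330 CPM in the high-ERCC library and 562, 524 and 507 CPM on Stiff16. The change was -32.7% (95% interval -37.2 to -28%), or -0.57 on the log2 scale (SE 0.0499, adjusted p = 4.17e-18). The Itga3 difference was -0.52 at 48 mM AHA and -0.62 in the opposite crossing. Between the crossings it differed by 0.05 (95% interval -0.08 to 0.18, adjusted p = 0.88).

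Lpp, a zyxin family protein of focal adhesions, measured 213 and 209 CPM on Soft80, 186 CPM in the high-ERCC library and 258, 307 and 281 CPM on Stiff16 (-0.41, adjusted p = 0.0002). Tln1, which encodes talin, was lower by a log2 difference of -0.25 (adjusted p = 0.00039), and Vcl, which encodes vinculin, by -0.24 (adjusted p = 0.005). Exons on the opposite strand overlap 25.5% of the exonic length of Vcl, and the strand setting of the counting was not given, so part of its reads could belong to that gene. The Vcl call was lost without Soft80 replicate 3 (-0.21, adjusted p = 0.14). Tns3, a tensin, was the remaining called member. Itga5, the alpha 5 subunit of the fibronectin receptor, was at 154 and 148 CPM on Soft80 and 168, 173 and 169 CPM on Stiff16. The Itga5 difference of -0.17 did not pass the threshold (adjusted p = 0.26). Zyx, the mechanosensitive adaptor zyxin, differed by -0.23 (adjusted p = 0.077), and passed with all 18 libraries (-0.33, adjusted p = 0.023).

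Contractile and actin-binding genes formed the longest of the lists. Of 32 tested, 13 were called lower on Soft80 and 1 higher, with a median of -0.18 (-0.22 with all 18 libraries). Flnc (chromosome 6, 29433256 to 29461883, plus strand), the actin crosslinker filamin C, measured 330 and 360 CPM on Soft80, 308 CPM in the high-ERCC library and 539, 542 and 523 CPM on Stiff16. The change was -35.5%, or -0.63 on the log2 scale (SE 0.0674, adjusted p = 1.08e-06). Flna, which encodes filamin A, was lower too. Myo1c, an unconventional myosin, was at 312 and 289 CPM on Soft80, 263 CPM in the high-ERCC library and 395, 378 and 372 CPM on Stiff16 (-0.34, adjusted p = 2.5e-06). Pdlim7, which links actin to LIM-domain partners, differed by -0.41 (adjusted p = 2.5e-06).

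Tagln, the smooth muscle actin-binding protein transgelin, measured 196 and 181 CPM on Soft80, 169 CPM in the high-ERCC library and 232, 260 and 219 CPM on Stiff16. Its log2 fold change was -0.32 (SE 0.0635, adjusted p = 0.000726). Exons on the opposite strand overlap 67.9% of the exonic length of Tagln, so the same limit holds. Acta2, smooth muscle actin, was at 123 and 124 CPM on Soft80 and 137, 158 and 153 CPM on Stiff16 (-0.27, adjusted p = 0.037), and its reads may be shared with the other actins. Cald1, the actin and tropomyosin binder caldesmon, was at 649 CPM in both Soft80 libraries and at 708, 711 and 740 CPM on Stiff16. The Cald1 groups did not overlap, which held for 25.5% of all tested genes in groups of 2 and 3 libraries, and the difference of -0.15 missed the threshold (adjusted p = 0.11). With all 18 libraries it passed (-0.21, adjusted p = 0.013). Tpm1, a tropomyosin, was lower (-0.26, adjusted p = 3.4e-06). The Tagln call was lost without Soft80 replicate 3 (-0.26, adjusted p = 0.083). That of Acta2 was lost without Soft80 replicate 2 or 3 or Stiff16 replicate 2 or 3 (adjusted p up to 0.21).

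Lima1 and Cnn2, both actin-binding, were the called genes of the contractile list whose RefSeq promoter window holds a CArG box, the element bound by serum response factor (SRF), and they moved in opposite directions. Windows were found for 27 of the 32 contractile genes, and Tagln was not searched. The windows run from 250 bases before to 50 bases after the annotated start, and the CArG box is in capitals. The Lima1 window is chr15:99820100-99820399 on the minus strand and the Cnn2 window chr10:79988350-79988649 on the plus strand, both in build GRCm38.p6.
Lima1: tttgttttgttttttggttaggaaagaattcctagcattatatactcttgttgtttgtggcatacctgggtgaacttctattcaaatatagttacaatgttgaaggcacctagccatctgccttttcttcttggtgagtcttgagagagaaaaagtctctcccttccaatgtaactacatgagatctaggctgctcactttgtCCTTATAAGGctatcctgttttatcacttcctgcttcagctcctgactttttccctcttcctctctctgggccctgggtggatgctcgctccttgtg
Cnn2: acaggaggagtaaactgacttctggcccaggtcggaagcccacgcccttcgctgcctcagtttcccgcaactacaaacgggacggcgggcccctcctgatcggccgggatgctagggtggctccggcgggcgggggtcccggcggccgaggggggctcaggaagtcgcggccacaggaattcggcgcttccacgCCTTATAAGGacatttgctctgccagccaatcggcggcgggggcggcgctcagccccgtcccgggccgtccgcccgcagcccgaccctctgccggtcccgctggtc
The box began 47 bases before the start of Lima1 and 56 bases before that of Cnn2. Lima1, which bundles actin filaments, was at 112 and 98.9 CPM on Soft80, 114 CPM in the high-ERCC library and 82, 82.3 and 76.3 CPM on Stiff16 (0.40, adjusted p = 0.0014). Cnn2, a calponin that binds actin and calmodulin, was at 186 and 164 CPM on Soft80, 159 CPM in the high-ERCC library and 218, 216 and 202 CPM on Stiff16 (-0.27, adjusted p = 0.0078). Without Soft80 replicate 2 the Lima1 call was lost (0.29, adjusted p = 0.26), and that of Cnn2 was lost without Soft80 replicate 3 (-0.18, adjusted p = 0.35) or Stiff16 replicate 1 (adjusted p = 0.055). A CArG box, read as CC, 6 bases of A or T, then GG (the same on both strands), was found in 535 of 32851 promoter windows (1.63%). Among tested genes with a window it was in 164 of 10516 (1.56%), in 2 of 71 genes called lower, in 2 of 39 called higher and in 5 of 27 contractile genes. A match describes the letters only and is not evidence of binding.

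Of 21 tested YAP and TEAD targets, 7 were called lower on Soft80 and 0 higher, with a median of -0.18 (-0.23 with all 18 libraries). Ccn1, a secreted matricellular protein and a standard YAP readout, measured 147 and 158 CPM on Soft80, 131 CPM in the high-ERCC library and 205, 200 and 188 CPM on Stiff16 (-0.38, SE 0.0653, adjusted p = 5e-05). Ptpn14, Amotl1 and Ajuba, which act on the Hippo pathway that restrains YAP, differed by -0.27, -0.27 and -0.21 (adjusted p = 0.0051, 0.009 and 0.013). Calls were lost without Soft80 replicate 2 or 3 for Ptpn14 (adjusted p up to 0.063), without Soft80 replicate 3 or Stiff16 replicate 3 for Amotl1 (up to 0.21), and without Soft80 replicate 2 or Stiff16 replicate 2 or 3 for Ajuba (up to 0.30). Ccn2, the other standard target, had overlapping groups. It was at 92 and 93.2 CPM on Soft80 and 91.7, 88 and 96.2 CPM on Stiff16. The Ccn2 difference was 0.01 (95% interval -0.16 to 0.18) and -0.01 with all 18 libraries, with opposite-strand exons over 23.2% of its exonic length. Ankrd1 lay between 1.04 and 3.83 CPM in the 6 libraries. The Ankrd1 difference was -0.21 (SE 0.48, adjusted p = 0.93).

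Immediate early and SRF genes, which respond within minutes to serum or stretch, showed no shared direction: 0 of 15 were called by edgeR or DESeq2 (6 had an unadjusted p under 0.05), and the fold changes were above 0 for 7 and below 0 for 8. Fos was at 12.6 and 11.6 CPM on Soft80 and 9.52, 3.94 and 5.76 CPM on Stiff16. The Fos difference of 0.87 missed the threshold (adjusted p = 0.069) and passed it with all 18 libraries (0.85, adjusted p = 0.02). Srf itself differed by -0.14 (adjusted p = 0.5) and Egr1 by 0.08 (adjusted p = 0.91).

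Among 18 targets and feedback regulators of ERK signalling, 4 were called lower on Soft80 and 0 higher, with a median of -0.18 (-0.25 with all 18 libraries, when 7 were called lower). Etv4, an ETS factor induced by FGF and ERK, was at 61.2 and 55.2 CPM on Soft80, 70.4 CPM in the high-ERCC library and 93.9, 90 and 87.6 CPM on Stiff16. The change was -35.6% (log2 fold change -0.63, SE 0.0947, adjusted p = 1.09e-06). Epha2, an ephrin receptor, differed by -0.30 (adjusted p = 0.00016) and Dusp6, a phosphatase that inactivates ERK, by -0.35 (adjusted p = 0.027). Lif, the gene of the cytokine that was also in the medium, was at 16.9 and 15.8 CPM on Soft80 and 24.5 to 27.4 CPM on Stiff16 (-0.66, adjusted p = 0.029). The high-ERCC library, at 23.6 CPM, was close to Stiff16, and with it the Lif call was lost (-0.46, adjusted p = 0.095). The Lif call was also lost without any 1 of the 5 libraries compared (adjusted p up to 0.20). That of Dusp6 was lost without Soft80 replicate 2 or 3 or Stiff16 replicate 2 or 3 (adjusted p up to 0.22). Spry4, an inhibitor of receptor signalling to ERK, differed by -0.22 (adjusted p = 0.11).

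Secreted factors, listed with the receptor Kit and the enzyme Sod2, moved in both directions. Of 11 tested, 4 were called higher and 2 lower. Trh, the thyrotropin-releasing hormone precursor, was at 61.5 and 73.5 CPM on Soft80, 66.4 CPM in the high-ERCC library and 48.3, 43.9 and 40.5 CPM on Stiff16 (0.60, SE 0.107, adjusted p = 9.82e-05). Vgf, a neuropeptide precursor, was at 23.5 and 24.8 CPM on Soft80, 28.0 CPM in the high-ERCC library and 39.8, 44.9 and 41.2 CPM on Stiff16 (-0.79, SE 0.142, adjusted p = 0.000102). Trh and Vgf groups did not overlap in the 6 libraries, as held for 16.7% of all genes tested. Csf1, the macrophage growth factor, was lower (-0.55, adjusted p = 0.013), while Fgf4, the FGF that mESCs secrete, was higher (0.33, adjusted p = 0.0054). Kit, the stem cell factor receptor (0.46, adjusted p = 0.0078), and Sod2 were also higher. Without Soft80 replicate 2 the calls of Csf1 (-0.41, adjusted p = 0.40), Kit (0.32, adjusted p = 0.42) and Fgf4 (0.31, adjusted p = 0.097) were lost. Those of Csf1 and Kit were lost without Stiff16 replicate 1 too (adjusted p = 0.16 and 0.12), and those of Fgf4 and Trh without Soft80 replicate 3 (adjusted p = 0.054 and 0.055). Earlier results of these data led to the choice of Vgf, Csf1, Trh, Kit and Sod2 for this list.

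Matrix genes were split. Of 20, 1 was called higher and 4 lower, with a median of -0.06. Lama1, the alpha chain of embryonic laminin, was at 170 and 209 CPM on Soft80, 209 CPM in the high-ERCC library and 157, 149 and 134 CPM on Stiff16 (0.36, adjusted p = 0.00087). The alpha 5 laminin chain Lama5 went the other way (-0.23, adjusted p = 0.0014), as did the basement membrane proteoglycans Agrn (-0.25, adjusted p = 0.0014) and Hspg2 (-0.20, adjusted p = 0.014), and Thbs1. Without Soft80 replicate 3, which had the higher of the levels in the pair, Lama1 was at 0.21 and lost its call (adjusted p = 0.31). Without Soft80 replicate 2, Hspg2 was at -0.12 (adjusted p = 0.39), Agrn at -0.23 (adjusted p = 0.07) and Lama5 at -0.21 (adjusted p = 0.072), and none of these 3 was called. Hspg2 also lost its call without Stiff16 replicate 1 or 2 (adjusted p = 0.07 and 0.074). Fn1, which encodes fibronectin, the protein that coated all gels, differed by -0.04 (95% interval -0.12 to 0.04). The collagen IV chain Col4a1 differed by -0.03 (adjusted p = 0.9) and the collagen chaperone Serpinh1 by -0.20 (adjusted p = 0.23).

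Keratins 8 and 18, partners in the filaments of simple epithelia, were lower on Soft80. Krt8 was at 361 and 344 CPM on Soft80 and 430, 389 and 430 CPM on Stiff16 (-0.24, adjusted p = 0.0015), and Krt18 differed by -0.20 (adjusted p = 0.0063). Both genes have processed copies in the genome that could share reads. Krt42 was higher (0.46, adjusted p = 0.02), and the median of the 10 intermediate filament genes was -0.14. Krt8, Krt18 and the trophectoderm marker sum were lower in the same libraries, and the part of that sum in the keratin result was not tested. Without Soft80 replicate 3 the calls of Krt8 (-0.21, adjusted p = 0.10), Krt18 (-0.15, adjusted p = 0.27) and Krt42 (0.52, adjusted p = 0.059) were lost. Those of Krt18 and Krt42 were lost without Stiff16 replicate 3 (adjusted p = 0.12 and 0.22), and that of Krt42 without Soft80 replicate 2 (adjusted p = 0.33). The nuclear lamina gene Lmna differed by -0.21 (adjusted p = 0.17).

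Of 19 cell-cell junction genes, 2 were called lower and 0 higher. Dsp, the desmosomal plaque protein desmoplakin, differed by -0.22 (adjusted p = 0.006) and Cdh1, E-cadherin, by -0.15 (adjusted p = 0.04). Cdh1 was at 823 and 770 CPM on Soft80, 763 CPM in the high-ERCC library and 905, 855 and 896 CPM on Stiff16. The Cdh1 call was lost in 8 of the 17 leave-one-out fits, most clearly without Soft80 replicate 3 (-0.10, adjusted p = 0.49). That of Dsp was lost without Soft80 replicate 2 or Stiff16 replicate 3 (adjusted p = 0.087 and 0.058). Tjp1, a tight junction scaffold, differed by -0.09 (adjusted p = 0.47). With all 18 libraries 8 junction genes were called lower.

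Metabolic lists held few calls. The median of the 20 tested cholesterol synthesis and uptake genes was -0.06. Slc2a1, the glucose transporter GLUT1, was the called gene of 18 in glycolysis (-0.19, adjusted p = 0.0083), and Ldha differed by -0.18 (adjusted p = 0.092). The Slc2a1 call was lost without Soft80 replicate 2 or 3 or Stiff16 replicate 2 (adjusted p up to 0.14). Of 17 ATF4 amino acid response genes, 0 were called by edgeR or DESeq2 and 5 had an unadjusted p under 0.05. Atf4 differed by 0.04 (adjusted p = 0.89) and Trib3, which varied from 6.9 to 20.5 CPM over the 6 libraries, by 0.51 (adjusted p = 0.37).

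**Figure D4:**
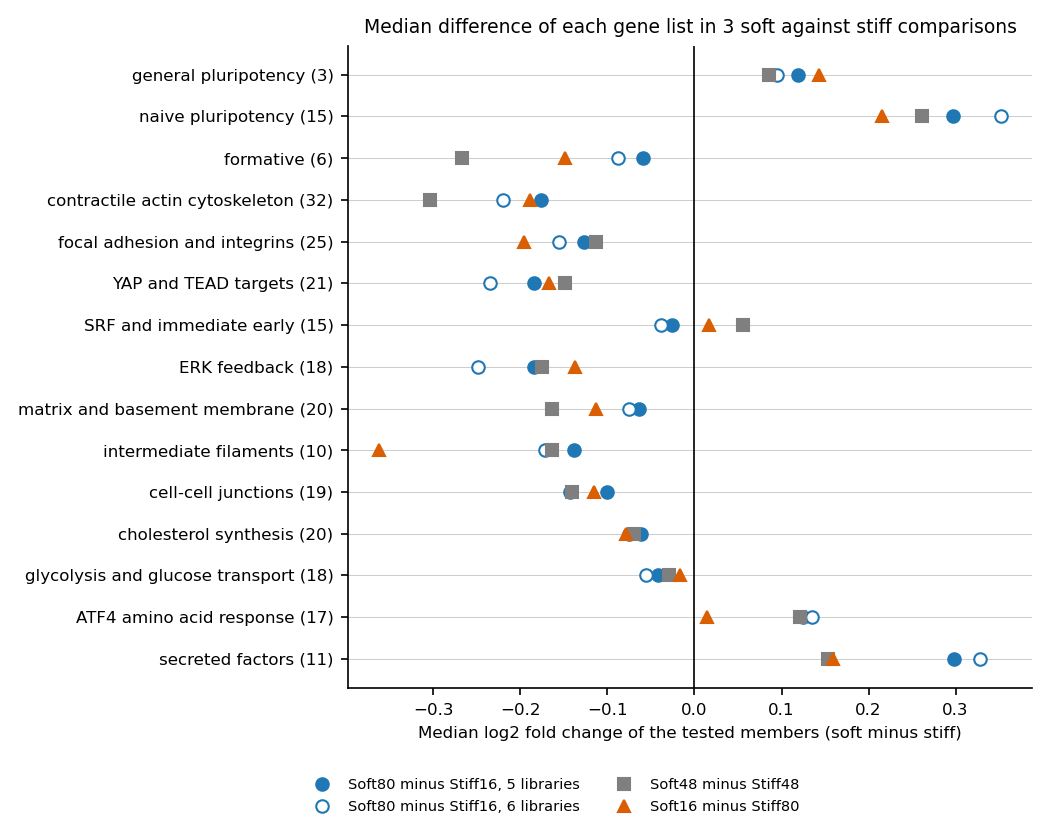
Median log2 fold change, soft minus stiff, of the tested members of each gene list (number in brackets) in Soft80 minus Stiff16 without and with the high-ERCC library, in Soft48 minus Stiff48 and in Soft16 minus Stiff80. The naïve list lies right of 0 and the contractile, adhesion, YAP and ERK lists left of 0 in every pairing, and the intermediate filament median is -0.14 here and -0.36 in the opposite crossing.

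The genes with the largest fold changes at a mean of at least 5 CPM were mostly of low level. Pck2, the mitochondrial enzyme of gluconeogenesis, was at 17.3 and 20.1 CPM on Soft80, 20.9 CPM in the high-ERCC library and 8.27 to 11.6 CPM on Stiff16 (0.84, adjusted p = 0.01). Mcf2, a guanine nucleotide exchange factor (0.68, adjusted p = 0.0083), the stress kinase Map3k5 (0.68, adjusted p = 0.036), Col9a2 (0.60, adjusted p = 0.02), and the cilium genes Ift57 (0.64, adjusted p = 0.0078) and Evc (0.54, adjusted p = 0.027) were also higher. At the lower end, Bmp8b, a BMP ligand, was at 12.6 and 7.68 CPM on Soft80, 10.8 CPM in the high-ERCC library and 18.3 to 23.2 CPM on Stiff16 (-0.96, adjusted p = 0.0034), with opposite-strand exons over 12.2% of its length. Esam and Mpp3, a junction protein and a membrane scaffold, differed by -1.16 and -1.13 (adjusted p = 0.048 and 0.044), and Cdcp1, a transmembrane protein, by -0.64 (adjusted p = 0.013). Aga, a lysosomal enzyme, and Plau, the protease urokinase, were called at -1.31 and -1.05 (adjusted p = 0.039 and 0.042) but the high-ERCC library lay within the Stiff16 range for both. With that library they were at -0.86 and -0.58 and were not called (adjusted p = 0.12 and 0.25). Every gene named in this paragraph lost its call in 1 or more of the fits that left out 1 library, from 1 of 17 for Bmp8b, without Soft80 replicate 3 (-0.67, adjusted p = 0.25), to 9 of 17 for Esam. Without Soft80 replicate 3, Map3k5 was at 0.42 (adjusted p = 0.55), Evc at 0.41 (adjusted p = 0.37), Pck2 at 0.73 (adjusted p = 0.17), Col9a2 at 0.56 (adjusted p = 0.18), Mcf2 at 0.66 (adjusted p = 0.11) and Aga at -1.17 (adjusted p = 0.26). Without Soft80 replicate 2, Cdcp1 was at -0.41 (adjusted p = 0.49), Esam at -0.83 (adjusted p = 0.53), Mpp3 at -0.77 (adjusted p = 0.54), Ift57 at 0.57 (adjusted p = 0.21) and Plau at -1.03 (adjusted p = 0.28).

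At higher levels, Peg10, an imprinted gene derived from a retrotransposon, had a small and precise difference. It was at 4009 and 3999 CPM on Soft80, 3739 CPM in the high-ERCC library and 4756, 4661 and 4861 CPM on Stiff16 (-0.25, SE 0.0326, adjusted p = 1.5e-08). Hmgn5, a nucleosome-binding protein (0.40, adjusted p = 0.0001), and Igf2bp2, an RNA-binding protein (0.39, adjusted p = 0.00027), were among the lowest adjusted p values of the genes that were higher. The Igf2bp2 call was lost without Soft80 replicate 2 (0.35, adjusted p = 0.056).

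A second question was which genes differed with AHA concentration on the soft side of the comparison. The paper states that the acrylamide to bis-acrylamide ratio was adapted to keep stiffness constant as AHA changed. The part of that ratio was not tested. Soft80 against Soft16 holds the gel at 750 Pa and is the test of the difference between the crossed pairing and the pairing at low AHA. It called 34 genes (0.253% of 13438), 29 higher and 5 lower on Soft80. Stiff80 against Stiff16, its counterpart at 160 kPa, called 1 gene (0.00744%), Map1b, with 812 genes at an unadjusted p under 0.05. Of the 34 calls, 4 were in the contractile list, all higher on Soft80: Cald1, Tagln, Tpm1 and Acta2. A further 4 were intermediate filament genes, also higher: Vim, Krt19, Krt18 and Nes. Zyx, the ERK list phosphatase Dusp4 and the matrix genes Col4a1 and Serpinh1 were called higher as well, and 0 of the 15 naïve genes were called by edgeR or DESeq2 (2 had an unadjusted p under 0.05).

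Cald1 was at 452, 519 and 537 CPM on Soft16, below the 649 CPM of both Soft80 libraries (0.37, SE 0.048, adjusted p = 2.44e-07). In the high-ERCC library it was 568 CPM, still above Soft16, and with all 18 libraries the difference was 0.30 (adjusted p = 0.0018). Tagln was at 132, 146 and 148 CPM on Soft16 and differed by 0.41 (SE 0.0656, adjusted p = 2.84e-05), Krt19 by 0.41 (SE 0.0703, adjusted p = 0.000146) and Vim by 0.28 (SE 0.0463, adjusted p = 3.83e-05). For these 4 genes no Soft80 library, the high-ERCC one included, reached down to the Soft16 range, and 14.2% of all genes tested had no overlap between these 6 libraries. The soft minus stiff differences at 16 mM AHA, which share the Stiff16 libraries, were -0.52 for Cald1, -0.73 for Tagln, -0.65 for Acta2, -0.44 for Krt19 and -0.38 for Vim. Side by side, those of Soft80 minus Stiff16 were -0.15, -0.32, -0.27, -0.03 and -0.10. For Itga3 the corresponding values were -0.67 and -0.57, and for Nanog 0.33 and 0.45. Leaving out Soft80 replicate 2 reduced the 34 calls to 2, leaving out Soft16 replicate 1 reduced them to 8, and leaving out Soft80 replicate 3 raised them to 69. The 2 genes left without Soft80 replicate 2 were Cald1 and Vim, so every other gene named here as called in Soft80 against Soft16 lost its call.

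**Figure D5:**
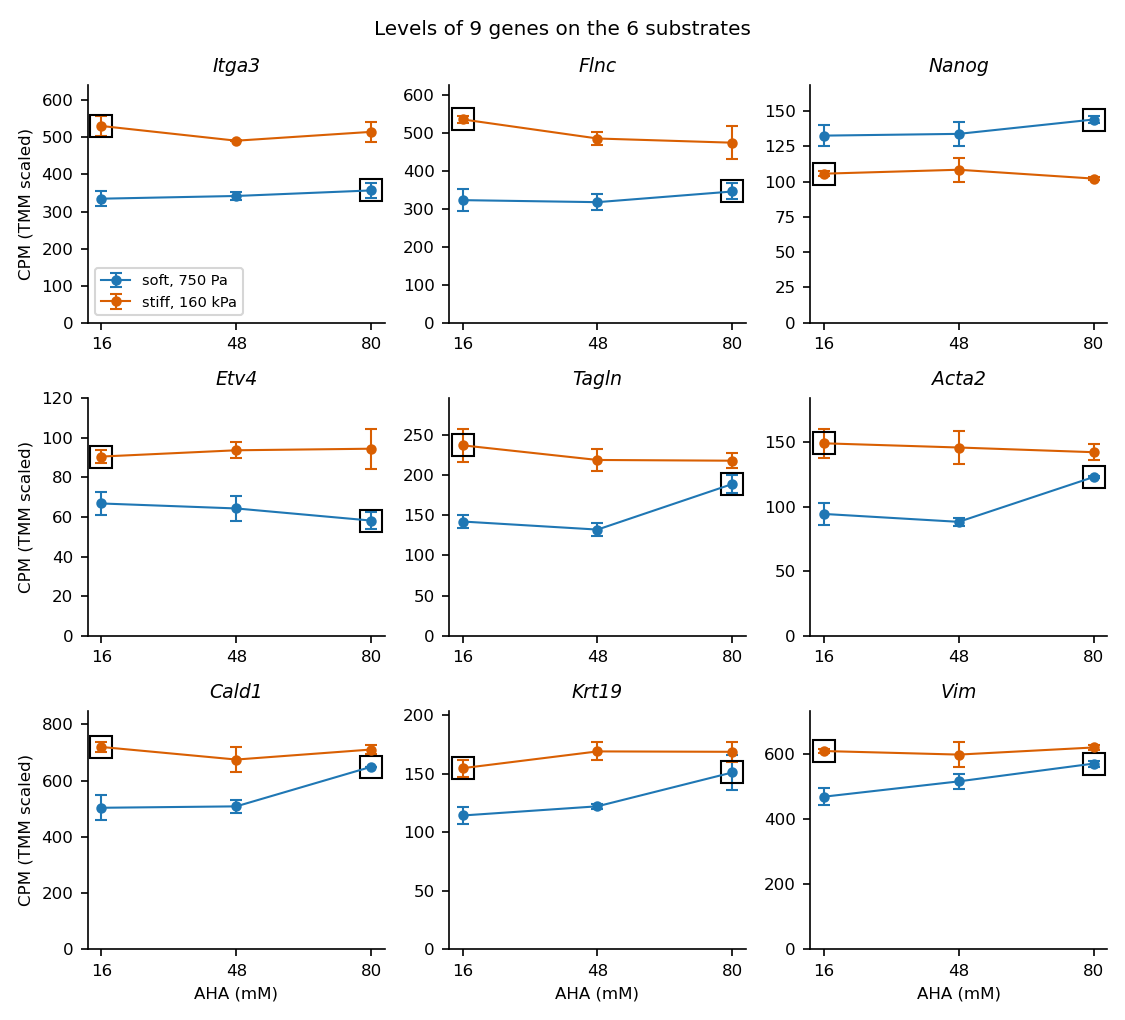
Mean level in TMM-scaled CPM against AHA concentration (mM) on soft (blue) and stiff (orange) gels for 9 genes, with SD (n = 3, and n = 2 for Soft80, where the high-ERCC library is left out). Squares mark Soft80 and Stiff16. Means of Itga3, Flnc and Etv4 are lower and those of Nanog higher on soft at every AHA concentration, while Tagln, Acta2, Cald1, Krt19 and Vim on soft are nearer to stiff at 80 mM.

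Soft80 minus Stiff16 was then tested against the pairings that share no library. Against the opposite crossing 15 genes differed (0.112% of 13438), 10 with a higher and 5 with a lower value in Soft80 minus Stiff16. Krt19 and Zfp462 had the lowest adjusted p. Krt19 was at 162 and 140 CPM on Soft80 and 160, 146 and 158 CPM on Stiff16, which overlap, while the opposite crossing gave -0.56. The difference between these was 0.53 (95% interval 0.34 to 0.71, adjusted p = 0.000547). Cald1 differed between the crossings by 0.35 (adjusted p = 0.00204), Igfbp3, which binds insulin-like growth factors, by 0.48 (adjusted p = 0.00242) and Vim, the mesenchymal filament protein vimentin, by 0.31 (adjusted p = 0.00485). With all 18 libraries Krt19, Igfbp3 and Vim kept these calls and Cald1 did not (0.29, adjusted p = 0.092). Leaving out Soft80 replicate 2 ended the calls of Krt19 (0.41, adjusted p = 0.21) and Igfbp3 (0.35, adjusted p = 0.36), and leaving out Soft16 replicate 1 ended that of Vim (0.28, adjusted p = 0.063). Zfp462, a zinc finger chromatin protein, went the other way, with -0.15 in Soft80 minus Stiff16 and 0.23 in the opposite crossing (difference -0.38, adjusted p = 0.000547). Zfp462 and Cald1 kept their calls in each of the 17 fits that left out 1 library. Zfp462 was at 338 and 337 CPM on Soft80 and 356, 380 and 388 CPM on Stiff16.

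Against the pairing at 48 mM AHA, 2 genes differed (0.0149%), Krt19 by 0.43 and Tagln by 0.40 (both adjusted p = 0.045), and 726 genes had an unadjusted p under 0.05. Leaving out 1 library ended the call of Krt19 in 12 of 17 fits and that of Tagln in 10. Neither passed with all 18 libraries (adjusted p = 0.16 for both) or under another scaling (adjusted p = 0.053 for both). For the genes whose differences were strongest, intervals of the difference from the 48 mM pairing were -0.18 to 0.08 for Itga3, -0.20 to 0.16 for Flnc, -0.05 to 0.35 for Nanog and -0.34 to 0.16 for Etv4.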

How the data were processed

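RNA-seq was measured in 18 libraries of E14 mESCs on 6 substrates, 3 libraries each, grouped by condition label. The labels give no batch and no replicate numbers, and replicates were numbered in sample order. The authors trimmed reads with Trim Galore 0.4.4, aligned them with GSNAP to mm10 and counted them per Ensembl gene with HTSeq, and the deposited values are raw counts from pico-input libraries. The strand setting was not given. HTSeq summary lines, 61.7 to 62.6% of a column's sum in the 6 libraries, and 92 ERCC and 7 SIRV spike-ins stayed out of library sizes and tests. GENCODE M21 named 45143 of 46078 genes.

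Tests used edgeR 4.0.16 in R 4.3.3, with a robust quasi-likelihood fit, 1 coefficient per group and TMM scaling, on protein-coding genes kept by filterByExpr at a minimum count of 10. Adjusted p is Benjamini-Hochberg over all 13438 genes at a threshold of 0.05, and tests were two-sided. The common dispersion was 0.00286, a biological coefficient of variation of 5.35%. Levels are CPM after TMM scaling and are not corrected for gene length, so they compare libraries and not genes. Counting intervals cover counting error only.

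The comparison and gene lists were chosen with earlier results of these data known. Named genes were those marked as key in the lists, the called members with the 4 lowest adjusted p of each list, the 5 lowest adjusted p in each direction, the 8 highest and 8 lowest called fold changes among genes averaging 5 CPM or more, the 5 lowest of each test of a difference, and called contractile or SRF genes with a CArG box. Klf2, Klf4, Tns3, Flna, Thbs1, Sod2, Nes, Dusp4 and Map1b, named to complete a count, were chosen after their values were seen. Some genes that the rule names are not reported here. Alternatives were RLE scaling, DESeq2 1.42.0, no expression filter, all annotated genes, all 18 libraries, the 2 groups alone, and leaving out libraries.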

Additional observations from a re-analysis of the deposited data

Results flagged for a closer look

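Soft minus stiff differences that depended on how AHA was paired with stiffness were singled out because a test of the difference between the pairings passed. Against the opposite crossing, these were Krt19 (0.53), Cald1 (0.35), Igfbp3 (0.48) and Vim (0.31), all less negative or higher in Soft80 minus Stiff16, and Zfp462 (-0.38), which was lower. Against the pairing at 48 mM AHA, these were Krt19 (0.43) and Tagln (0.40), with values on the log2 scale. Leaving out 1 library ended the 48 mM call of Krt19 in 12 of 17 fits and that of Tagln in 10, and neither was called with all 18 libraries, DESeq2 or RLE scaling. Against the opposite crossing, the calls of Krt19 and Igfbp3 were lost without Soft80 replicate 2 and that of Vim without Soft16 replicate 1.

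The ERCC share of Soft80 replicate 1, 1.37%, was singled out because spike-in counts are outside the gene comparisons and the other 17 libraries were between 0.607 and 0.725%. No group had more than 3 libraries, so single libraries were not tested as outliers.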

How the results depend on the processing

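With all 18 libraries Soft80 minus Stiff16 had 340 called genes in place of 145. With Soft80 replicate 2 or 3 left out in place of replicate 1 it had 331 or 269, and with the 2 groups alone and all their 6 libraries, an alternative chosen after seeing the data, 265. DESeq2 gave 123, the 2 groups alone 115, all annotated genes 128, no filter 151 and RLE scaling 145. Leaving out 1 library gave 62 to 150. Leaving out 1 library gave 284 to 551 in the opposite crossing, 222 to 424 at 48 mM AHA, 2 to 69 for Soft80 against Soft16, 0 to 15 for Stiff80 against Stiff16, 5 to 65 for the difference of the crossings and 0 to 4 for the difference from 48 mM. The difference of the crossings had 46 calls with DESeq2, 27 with Soft80 replicate 3 left out in place of 1, and 28 with all annotated genes and 28 without the filter, against 15. The difference from 48 mM had 0 calls, in place of 2, with DESeq2, RLE scaling, all annotated genes, all 18 libraries, or replicate 2 or 3 left out in place of 1. Stiff80 against Stiff16 had 0 with DESeq2 and with all annotated genes, 9 without the filter, 3 with all 18 libraries and 4 with either other Soft80 library left out, against 1. The cause was not tested.

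With Soft80 replicate 2 left out in place of 1, list medians moved beyond the spread between libraries for general pluripotency (0.0638), contractile genes (-0.25), YAP targets (-0.24), ERK targets (-0.30), intermediate filaments (-0.22), junctions (-0.18) and cholesterol synthesis (-0.12). ERK targets were at -0.25 with all 18 libraries and at -0.25 with the 2 groups and 6 libraries, and junctions at -0.14 in both and at -0.15 with replicate 3 left out in place of 1. Leaving out 1 library gave medians of -0.19 to -0.11 for adhesion, -0.28 to -0.11 for YAP targets, -0.25 to -0.16 for ERK targets and -0.148 to -0.0859 for junctions. No list median turned its sign beyond that spread.

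Signs turned in named genes that were not called. Ccn2 was at -0.0144, -0.0247 and -0.0120 with replicate 2 or 3 left out in place of 1 and with all 18 libraries, and at -0.0136 with the 2 groups and 6 libraries. In the same order Igfbp3 was at -0.152, -0.0303, -0.0524 and -0.0546, and with replicate 2 left out in place of 1 Egr1 was at -0.0034 and Fn1 at 0.0404. Leaving out 1 library gave ranges of -0.180 to 0.0973 for Otx2, -0.0212 to 0.0449 for Ccn2, -1.16 to 0.31 for Ankrd1, -0.0816 to 0.200 for Egr1, -0.0989 to 0.0024 for Fn1, -0.0984 to 0.0150 for Col4a1, -0.00033 to 0.0786 for Atf4, -0.154 to 0.0614 for Krt19 and -0.11 to 0.12 for Igfbp3. Of the 58 named genes called in Soft80 minus Stiff16, 10 lost their call with the 2 groups alone, 3 with DESeq2, 4 with all annotated genes, 1 without the filter, 8 and 9 with replicate 2 or 3 left out in place of 1, and 3 with all 18 libraries, which added 7 calls. RLE scaling changed 0 of 84. No paired analysis was possible because the labels give no replicate numbers shared between groups. Depth limits genes of low level: the SE of Ankrd1, at 1.04 to 3.83 CPM, was 0.48, against 0.0499 for Itga3.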
